A study of Mus musculus with 6 samples.

Results

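The metallothionein and metal transport genes are a set of 10 genes, *Mt1*, *Mt2*, *Slc30a1*, *Slc30a10*, *Slc39a4*, *Slc39a8*, *Slc39a14*, *Mtf1*, *Atp7b* and *Cp*, taken by symbol from a table of 56691 genes measured in the liver of pregnant mice. All 10 were found in the table, and 9 of them, all but *Slc39a8*, were among the 10866 genes tested, which had a mean FPKM (reads scaled by exonic length and by the library total) of at least 1. The 3 KPF dams were hChrebp-KO mice, in which a Cre driven by the albumin promoter deletes a floxed exon of *Mlxipl*, the gene of the transcription factor ChREBP, in hepatocytes. The 3 WPF dams carried the genotype label WT, and the methods of the study describe them as Chrebp flox/flox controls without Cre. Both groups were mated with Chrebp flox/flox males on day 0, received HFrD, a high-fructose diet, after mating, and were killed on day 17. The age of the dams was not given in the sources used here. With no dams on normal chow in these files, the data compare genotypes under the diet and say nothing about the diet itself.

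The liver takes up, stores and distributes zinc, copper and manganese. Metallothioneins are small cysteine-rich proteins that bind zinc and copper in the cytosol, and their genes are switched on by zinc through the factor MTF1, which binds metal response elements in their promoters, and also by glucocorticoids and inflammatory signals. Transporters of the SLC39 (ZIP) family bring zinc and, for some members, manganese and iron into the cytosol, those of the SLC30 (ZnT) family carry metal out of it, ATP7B moves copper into bile and into newly made ceruloplasmin, and ceruloplasmin, the product of *Cp*, carries copper in plasma.

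The libraries held 10694496 to 14496630 counted reads. *Mlxipl* was counted at 182, 709 and 860 CPM (read counts scaled to a common library size by edgeR's TMM method) in KPF (replicates 1, 2 and 3, in this order throughout), whereas WPF (replicates 2, 3 and 4) had 974, 1277 and 891 CPM. The groups did not overlap, by little in the case of KPF replicate 3 and WPF replicate 4, and the counts were not split by exon, so they do not measure the deleted exon alone. *Pklr*, a target of ChREBP that encodes liver pyruvate kinase and was chosen after its values were seen, stood at 11.3, 18.6 and 12.1 CPM in the KPF libraries and 151, 139 and 24.9 CPM in the WPF libraries, so that WPF replicate 4 stood apart from the other WPF libraries and nearer to KPF. The 6 hepatocyte markers summed to 83869 to 110303 CPM in KPF and 107168 to 179400 CPM in WPF. KPF replicate 2 also held skeletal muscle RNA, with 3 markers summing to 1382 CPM against at most 4.47 CPM elsewhere. The 5 markers of stellate cells and fibroblasts, all 5 detected, summed to 142 to 277 CPM in KPF and 81.6 to 105 CPM in WPF. In whole-liver RNA, fewer cells of a type and less RNA per cell cannot be told apart.

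Of the 9 tested metal-handling genes, only the zinc exporter gene *Slc30a1* passed the rule of an unadjusted p under 0.05 with at least a 1.5-fold change, and it was lower in KPF. That is 1 of 9 called lower against 3.98% of all tested genes (432 of 10866), and 0 of 9 called higher against 5.83% (634 of 10866). Scaling by library totals alone, the calls over all genes were 371 higher and 716 lower. At an adjusted p under 0.05 (edgeR's quasi-likelihood test, Benjamini-Hochberg), 0 of the 9 genes and 0 of the 10866 passed (0%), although 1176 genes had an unadjusted p under 0.05 and DESeq2 called 156 genes, 0 of them among the 9. The groups did not overlap for 2 of the 9, *Slc30a1* and *Mtf1*, against 15.7% of all tested genes. The median log2 fold change was -0.57 over the 9 genes and 0.02 over all tested genes, and 7 of the 9 had a fold change below 0 against 5281 of 10866. Without WPF replicate 4, the values of *Mt1*, *Mt2* and *Slc39a14* were above 0, as given below for each.

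Per exonic length, 3 of the 10 genes were abundant and 7 were not. *Mt1* had a mean of 493 FPKM over the 6 libraries, *Mt2* 376 FPKM and *Cp* 362 FPKM. *Slc39a14* followed with 17.7 FPKM and *Slc30a10* with 11.3 FPKM, and the other 5 lay between 0.652 FPKM (*Slc39a8*) and 2.76 FPKM (*Slc39a4*). In this order *Mt1* was above *Mt2* in 6 of 6 libraries, *Mt2* above *Cp* in only 2 of 6, *Cp* above *Slc39a14* in 6 of 6, *Slc39a14* above *Slc30a10* in 4 of 6, and *Slc30a10* above *Slc39a4* in 4 of 6. Neighbours that did not keep their order in every library, such as *Mt2* and *Cp*, do not differ beyond their spread. The exonic length in the table bears on the first pair, since it is 1246 bases for *Mt1*, the whole span of the gene, and 588 bases for *Mt2*. An antisense gene, given below, also overlaps 73.5% of the exonic bases of *Mt2*. Its part in the order of this pair was not tested.

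The promoters of the metallothionein genes and of the zinc and manganese exporters are shown here. *Mt1* and *Mt2* moved together across dams while the exporters did not move with them, and a link to their promoters was not tested. A RefSeq promoter (GRCm38.p6) was found for 8 of the 10 genes, all but *Slc39a4* and *Slc39a14*. The core of the metal response element, TGCACNC or TGCGCNC, was searched on both strands of the 250 bases before the listed start and is in capitals below, where a match on the other strand appears as its reverse complement. The *Mt2* stretch is chr8:94172368-94172617 and the *Slc30a10* stretch chr1:185454598-185454847, both on the plus strand.
*Mt2*: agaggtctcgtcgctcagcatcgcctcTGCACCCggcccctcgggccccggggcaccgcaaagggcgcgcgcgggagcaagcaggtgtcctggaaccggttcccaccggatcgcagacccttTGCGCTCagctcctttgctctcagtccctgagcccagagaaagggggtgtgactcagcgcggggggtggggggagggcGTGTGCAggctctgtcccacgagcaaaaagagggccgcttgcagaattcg
*Slc30a10*: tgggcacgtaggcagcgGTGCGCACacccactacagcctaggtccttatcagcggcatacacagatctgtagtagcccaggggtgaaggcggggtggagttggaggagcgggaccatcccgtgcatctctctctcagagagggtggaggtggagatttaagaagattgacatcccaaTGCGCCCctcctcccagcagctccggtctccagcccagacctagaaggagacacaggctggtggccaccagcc
The *Mt2* promoter held 3 matches. The *Slc30a10* promoter also held 3, and 2 of those overlap on opposite strands, so that they fill a single stretch. Promoters with at least 1 match made up 21.4% of 32841 RefSeq promoters, those with at least 2 made up 5.18%, and those with at least 3 made up 1.26%. In these shares, overlapping matches on opposite strands were counted separately, as for *Slc30a10*. Single matches, each shown with 10 bases on either side, stood in the promoters of *Mt1* (chr8:94179056-94179082, plus strand), *Slc30a1* (chr1:191906728-191906754, plus strand) and *Atp7b* (chr8:22060215-22060241, minus strand).
*Mt1*: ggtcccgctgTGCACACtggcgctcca
*Slc30a1*: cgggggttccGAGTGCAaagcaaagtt
*Atp7b*: tggtcctcgcTGCACCCtatctgcagc
The listed start of *Mt1* lies 122 and 152 bases before the starts of other *Mt1* transcripts in GENCODE M21, so the window does not hold the bases just before those starts. The listed start of *Mt2* likewise lies 46 and 242 bases before its 2 starts in GENCODE M21 and inside none of its transcripts there. No match was found for *Mtf1* or for either promoter of *Cp*, and 1 of the 2 promoters of *Slc39a8* held 1. The E-box CACGTG, the word that a ChREBP response element repeats, was found in the same *Slc39a8* promoter and in no other of the 10 promoters of these genes, against 6.02% of all promoters. Only this exact single word was searched, so variants of it and spaced repeats were not looked for. These matches are letters in a window, and binding was not measured.

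*Mt1* (ENSMUSG00000031765, chr8:94905710-94906955 on GRCm39, the build given in the submitters' processing notes) encodes the main liver metallothionein together with *Mt2*, which lies next to it. It was counted at 248, 734 and 323 CPM in the KPF libraries and 545, 170 and 1526 CPM in the WPF libraries. The highest and the lowest library were both WPF, and the groups overlapped (p = 0.7 by an exact two-sided permutation test). The mean level was 435 ± 262 CPM for KPF dams and 747 ± 700 CPM for WPF dams (SD, n = 3 each), and the log2 fold change of KPF against WPF was -0.78 (SE 0.76, adjusted p = 0.724 by edgeR's quasi-likelihood test). Without WPF replicate 4 it was 0.28, so that the direction rested on this library.

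*Mt2* (ENSMUSG00000031762, chr8:94899292-94900196) was counted at 71.0, 193 and 141 CPM in the KPF libraries and 173, 54.1 and 633 CPM in the WPF libraries. WPF replicate 4 was again the highest and WPF replicate 3 the lowest, so that the 2 metallothioneins ranked the WPF dams alike. Its log2 fold change was -1.09 (SE 0.81, adjusted p = 0.640 by edgeR's quasi-likelihood test, exact permutation p = 0.8), and 0.24 without WPF replicate 4. Within WPF the highest library exceeded the lowest 8.95-fold for *Mt1* and 11.7-fold for *Mt2*, against 2.96-fold and 2.72-fold within KPF. The spread between WPF dams was thus larger than the difference between the genotypes for both genes. Across the 6 libraries the log2 CPM of the pair correlated with r = 0.97, a description over libraries that share depth and scaling, and the ratio of *Mt1* to *Mt2* in FPKM stayed between 1.09 and 1.80.

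The level of *Mt2* carries a further uncertainty. An antisense gene, *Gm45774*, overlaps 73.5% of the exonic bases of *Mt2* in GENCODE M21, and whether the counting used strand was not given in the sources used here. *Gm45774* was counted at 259, 832 and 358 reads in KPF and at 184, 48 and 3023 reads in WPF, which is 35.2, 38.7 and 24.8% of the reads of *Mt2* in KPF and 9.32, 6.32 and 28.4% in WPF. WPF replicate 4 was the highest and WPF replicate 3 the lowest for this gene too. With its reads added to *Mt2*, a choice made after seeing the data, the log2 fold change was -0.97 (adjusted p = 0.696 by edgeR's quasi-likelihood test). This sum cannot restore any reads that the counting gave to neither gene, so it does not settle the level of *Mt2*.

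**Figure D1:**
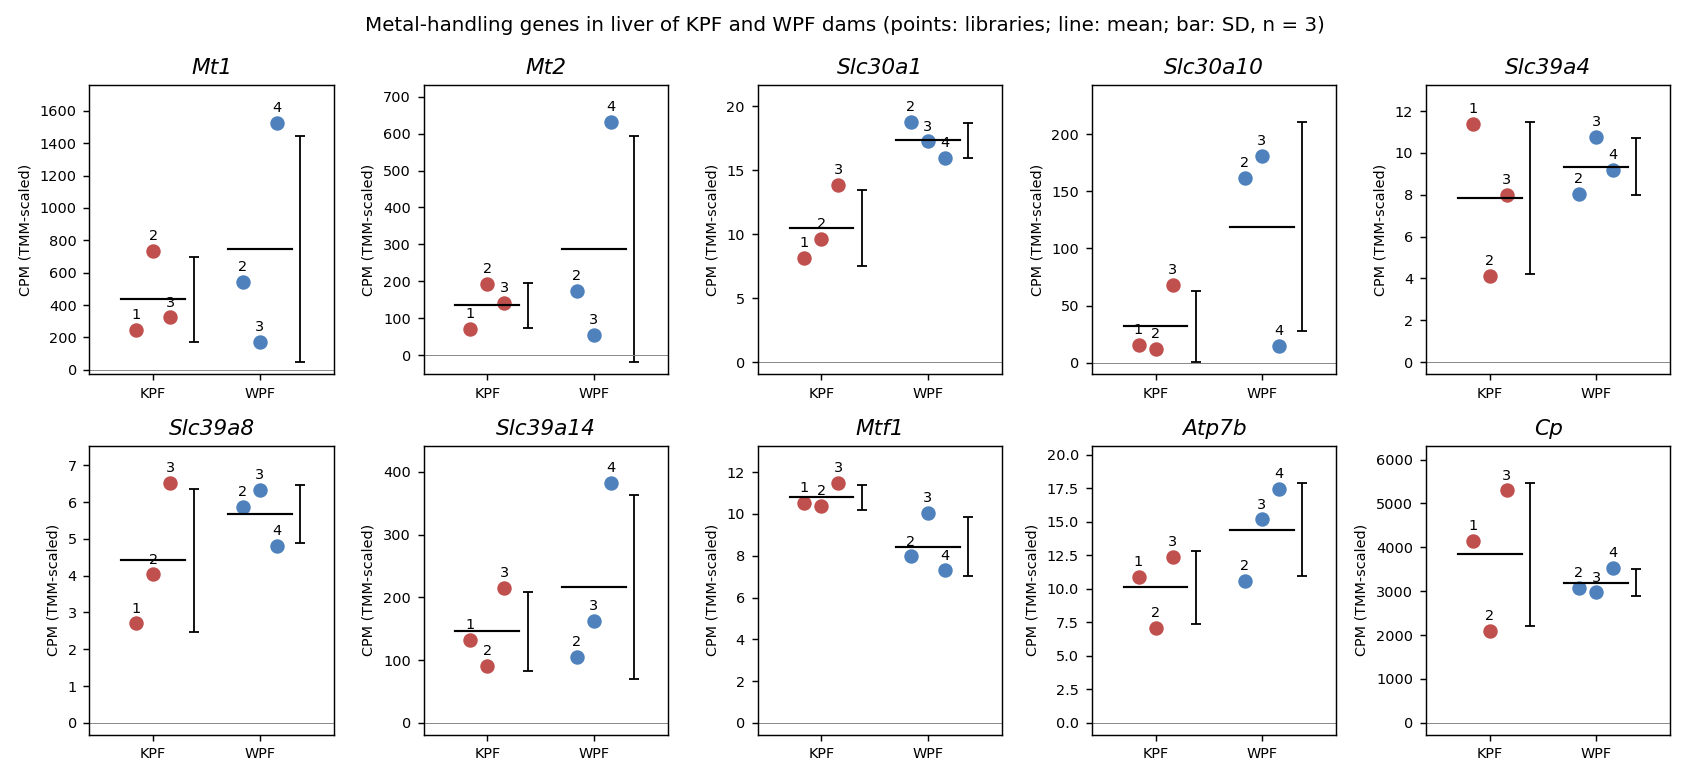
Level of each of the 10 genes in each library, in TMM-scaled CPM on a linear axis that holds 0, with KPF in red and WPF in blue, the replicate number above each point, a line at the group mean and a bar for the SD (n = 3). The groups are apart for *Slc30a1* and *Mtf1* and overlap for the other 8, and WPF replicate 4 is the highest library for *Mt1*, *Mt2*, *Slc39a14* and *Atp7b*.

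*Slc30a1* (ENSMUSG00000037434, chr1:191638879-191645359) encodes ZnT1, the zinc exporter of the plasma membrane and itself a gene that MTF1 activates. It stood at 8.11, 9.59 and 13.8 CPM in the KPF libraries and 18.7, 17.2 and 16.0 CPM in the WPF libraries. All 3 KPF libraries were below all 3 WPF libraries, and the WPF dams were within 1.17-fold of each other, where the metallothioneins spread most. Its mean was 10.5 ± 2.97 CPM in KPF and 17.3 ± 1.39 CPM in WPF (SD, n = 3 each). The log2 fold change was -0.72 (SE 0.25, unadjusted p = 0.0220 and adjusted p = 0.430 by edgeR's quasi-likelihood test), and the exact permutation p was 0.1, the smallest that 3 dams against 3 allow. Leaving out 1 library in turn gave values between -0.97 and -0.56, all below 0. The call was lost without KPF replicate 1 (-0.56), KPF replicate 2 (-0.67), WPF replicate 2 (-0.66) or WPF replicate 3 (-0.72). The gene rests on 84 to 269 reads a library. The stellate cell and fibroblast markers given above separated the groups in the opposite direction, and their part in this result was not tested.

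*Slc30a10* (ENSMUSG00000026614, chr1:185187045-185200959) encodes a transporter of the same family that exports manganese from hepatocytes into bile. It was counted at 15.7, 12.1 and 68.0 CPM in the KPF libraries and 162, 181 and 14.5 CPM in the WPF libraries. WPF replicates 2 and 3 were above every other library, and WPF replicate 4, at the level of KPF replicates 1 and 2, was below KPF replicate 3, so that the groups overlapped. Means were 31.9 ± 31.3 CPM for KPF dams and 119 ± 91.2 CPM for WPF dams (SD, n = 3 each). The log2 fold change was -1.90 (SE 0.96, unadjusted p = 0.0862 and adjusted p = 0.512 by edgeR's quasi-likelihood test, exact permutation p = 0.3), the largest in size among the 9 tested genes. Leaving out each library in turn kept it below 0, between -3.10 and -1.46. Without WPF replicate 4 it was -2.44 (unadjusted p = 0.0122), and without KPF replicate 3 it was -3.10 (unadjusted p = 0.0207). Both were past the rule by edgeR's quasi-likelihood test, with groups of 2 and 3 dams left. Both omissions drop a library that lay within the range of the other group. Without KPF replicate 1, KPF replicate 2, WPF replicate 2 or WPF replicate 3, *Slc30a10* was not past the rule. The unadjusted p was then 0.205, 0.177, 0.186 and 0.212 by edgeR's quasi-likelihood test. An antisense gene, *Gm2061*, overlaps 9.13% of the exonic bases of *Slc30a10* and followed it, with 0.579, 0.807 and 7.20 CPM in the KPF libraries and 8.58, 10.7 and 0.712 CPM in the WPF libraries.

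WPF replicate 4 thus had the highest *Mt1* and *Mt2* of all libraries and, among WPF, the lowest *Slc30a10*, with *Pklr* low as well. *Mlxipl* in this library was 891 CPM, above every KPF library. The other 2 WPF dams had *Slc30a10* high and *Pklr* high, and differed from each other in *Mt1* by 545 against 170 CPM.

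**Figure D2:**
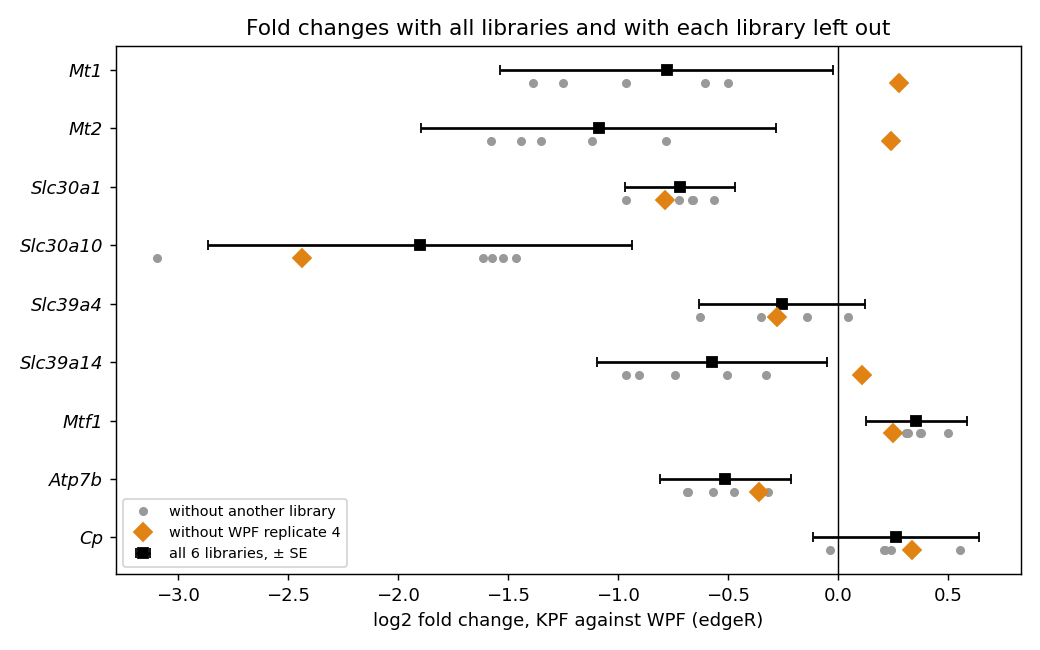
Log2 fold change of KPF against WPF for the 9 tested genes, from edgeR. Black squares use all 6 libraries with the standard error, grey circles leave out 1 library and orange diamonds leave out WPF replicate 4. The diamonds of *Mt1*, *Mt2* and *Slc39a14* lie above 0 while their squares lie below it, and all values of *Slc30a1*, *Slc30a10* and *Atp7b* lie below 0.

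Of the 3 importers, *Slc39a14* and *Slc39a4* did not pass the test, and *Slc39a8* was not among the tested genes. *Slc39a14* (ENSMUSG00000022094, chr14:70540918-70588874, minus strand) encodes ZIP14, which takes up zinc, manganese and non-transferrin iron in hepatocytes. It was counted at 132, 90.2 and 215 CPM in the KPF libraries and 105, 163 and 382 CPM in the WPF libraries, again with WPF replicate 4 the highest and the groups overlapping. Its log2 fold change was -0.57 (SE 0.53, adjusted p = 0.709 by edgeR's quasi-likelihood test), and 0.11 without WPF replicate 4. *Slc39a8* (ENSMUSG00000053897, chr3:135531040-135594333) encodes ZIP8, which reclaims manganese from bile. It stood at 2.70, 4.03 and 6.52 CPM in the KPF libraries and 5.87, 6.34 and 4.81 CPM in the WPF libraries. It was below the FPKM minimum, rests on 28 to 89 reads a library, and had a log2 fold change of -0.42 (SE 0.41, unadjusted p = 0.309) in the edgeR fit of all genes with at least 1 read. *Slc39a4* (ENSMUSG00000063354, chr15:76496583-76501584, minus strand) encodes ZIP4, best known as the zinc importer of the gut. Its values were 11.4, 4.12 and 7.98 CPM in the KPF libraries and 8.06, 10.8 and 9.20 CPM in the WPF libraries, with both the highest and the lowest library in KPF. The log2 fold change was -0.25 (SE 0.38, adjusted p = 0.819 by edgeR's quasi-likelihood test) and 0.05 without KPF replicate 2, the library with muscle RNA.

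*Mtf1* (ENSMUSG00000028890, chr4:124695897-124743593), the gene of the zinc-sensing factor, was counted at 10.5, 10.4 and 11.5 CPM in the KPF libraries and 7.97, 10.04 and 7.30 CPM in the WPF libraries. All KPF libraries were above all WPF libraries, but WPF replicate 3 came close to the lowest KPF library. The log2 fold change was 0.36 (SE 0.23, adjusted p = 0.593 by edgeR's quasi-likelihood test, exact permutation p = 0.1), which is under 1.5-fold. It stayed above 0 without any 1 library, between 0.25 and 0.50. The antisense gene *1110065P20Rik* overlaps 8.09% of its exonic bases and had 36 to 80 reads a library, against 91 to 141 for *Mtf1*.

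The copper genes did not pass the test either. *Atp7b* (ENSMUSG00000006567, chr8:22482801-22550321, minus strand) was counted at 10.9, 7.08 and 12.4 CPM in the KPF libraries and 10.6, 15.2 and 17.4 CPM in the WPF libraries. WPF replicate 2 lay among the KPF libraries, and the other 2 WPF libraries lay above them. Its log2 fold change was -0.51 (SE 0.30, adjusted p = 0.559 by edgeR's quasi-likelihood test) and lay between -0.69 and -0.32 with each library left out. *Cp* (ENSMUSG00000003617, chr3:20011218-20063309) was counted at 4142, 2088 and 5299 CPM in the KPF libraries and 3080, 2971 and 3539 CPM in the WPF libraries. The 3 WPF dams were within 1.19-fold of each other and lay inside the 2.54-fold range of the KPF dams. The log2 fold change of *Cp* was 0.27 (SE 0.38, adjusted p = 0.812 by edgeR's quasi-likelihood test) and -0.04 without KPF replicate 3.

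**Figure D3:**
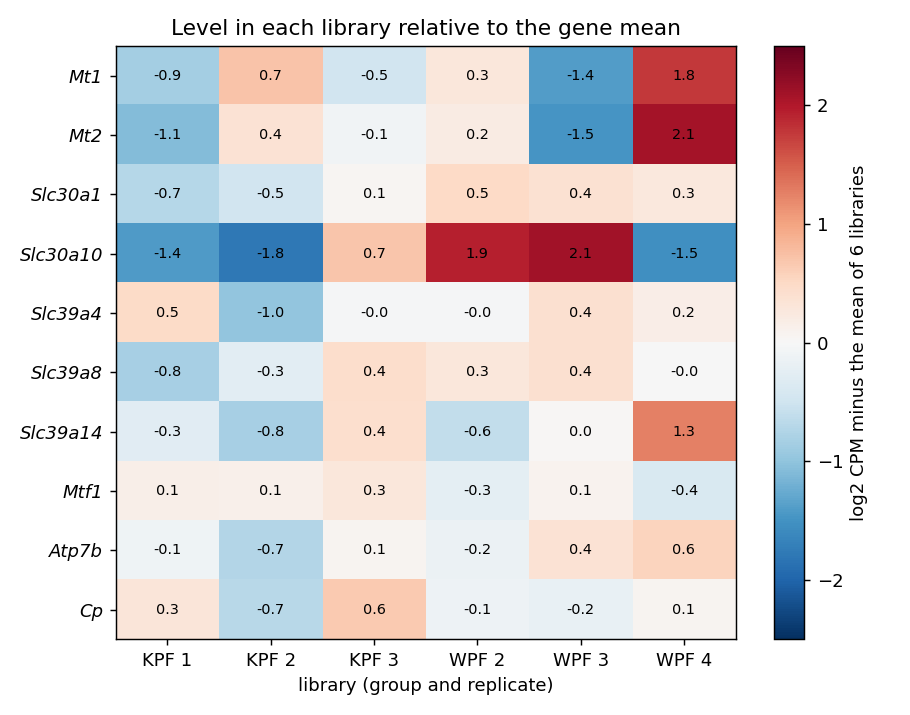
Each cell gives the log2 CPM of a gene in a library minus the gene's mean over the 6 libraries, red above and blue below it. *Mt1* and *Mt2* share their order of libraries at the extremes, with WPF replicate 4 highest and WPF replicate 3 lowest, while *Slc30a10* is highest in WPF replicates 2 and 3.

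Across the 6 libraries the genes fell into no single pattern. Apart from *Mt1* and *Mt2*, the closest pair of the 9 tested genes was *Slc39a14* and *Atp7b* (r = 0.86), followed by *Slc39a4* and *Atp7b* (r = 0.75) and by *Slc30a1* and *Slc30a10* (r = 0.74). *Mt1* and *Slc30a1*, both known to respond to MTF1, had r = 0.12, and *Mt1* and *Slc30a10* had r = -0.53. *Slc30a1* had r = 0.84 with *Mlxipl*, the largest in size among the 9 tested genes. Both genes separated KPF from WPF, so this r takes in the group difference, and within WPF their order of libraries differed. All these r values are descriptions over 6 libraries that share depth and scaling. The 5 tested genes whose log2 CPM was most like the mean of *Mt1* and *Mt2* were *Sertad2* (r = 0.98), *March8* (r = 0.97), *Plekha6* (r = 0.97), *Ddt* (r = 0.97) and *1810013L24Rik* (r = 0.97). They spanned far less than the metallothioneins, for instance 16.9 to 24.7 CPM for *Sertad2*. They were picked for the highest r among the 10866 tested genes, so a high r follows from the choice. Shared regulation was not tested.

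Among the other genes of metal handling, 1 of 10 tested zinc transporters was called higher and 1 lower, with a median log2 fold change of 0.05. *Slc39a5*, which encodes the zinc importer ZIP5, stood at 4.15, 4.66 and 3.31 CPM in the KPF libraries and 8.14, 6.48 and 11.04 CPM in the WPF libraries, without overlap. It fell by 1.08 on the log2 scale (SE 0.31, unadjusted p = 0.00877, adjusted p = 0.430 by edgeR's quasi-likelihood test) and kept its call with each library left out. *Slc39a2*, which encodes ZIP2, stood at 5.79, 8.25 and 5.55 CPM in the KPF libraries and 4.29, 3.70 and 3.98 CPM in the WPF libraries, also without overlap. Its log2 fold change was 0.71 (SE 0.29, unadjusted p = 0.0410, adjusted p = 0.453 by edgeR's quasi-likelihood test), and the call was lost under 9 of 14 alternatives, among them leaving out KPF replicate 2 (0.50) or WPF replicate 2 (0.76), 3 (0.66) or 4 (0.70). Of the other metallothioneins, *Mt4* had no read and *Mt3* 0.0965 CPM in KPF replicate 1 only.

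Of 11 tested copper genes 1 was called, lower, and the median log2 fold change was -0.38. This was *Atox1*, the chaperone that hands copper to ATP7B, at 57.2, 79.2 and 80.0 CPM in the KPF libraries and 154, 103 and 102 CPM in the WPF libraries. All KPF libraries lay below the lowest WPF library (log2 fold change -0.73, SE 0.27, unadjusted p = 0.0279, adjusted p = 0.430 by edgeR's quasi-likelihood test). The call was lost without KPF replicate 1 (-0.59) or WPF replicate 2 (-0.51). Of 5 manganese genes 0 were called by edgeR or DESeq2, all 5 had values below 0, and the smallest p was that of *Atp2c1*, a Golgi pump for manganese and calcium (log2 fold change -0.35, SE 0.19, unadjusted p = 0.0960, adjusted p = 0.523).

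The known inputs to the metallothionein genes were read from 3 lists. Of 4 tested genes reported to respond to MTF1, 0 were called by edgeR, and the smallest p was that of *Gclc*, a glutathione synthesis gene (log2 fold change -0.38, SE 0.27, unadjusted p = 0.196, adjusted p = 0.625). Of 8 glucocorticoid-responsive genes 0 were called, with a median of 0.32 (2 were called without WPF replicate 4 and 1 without KPF replicate 1), and the smallest p was that of *Zbtb16* (-0.78, SE 0.38, unadjusted p = 0.0731, adjusted p = 0.492 by edgeR's quasi-likelihood test). *Zbtb16* was past the rule without KPF replicate 1 (-1.01) or WPF replicate 4 (-1.02), and *Gclc* without KPF replicate 3 (-0.64). Of 14 acute phase genes 3 were called higher and 0 lower, against 5.83% and 3.98% of all tested genes, with a median of 0.14. By limma, with a mean FPKM of at least 5 or without KPF replicate 1, 1 was called. DESeq2, library totals, all genes of at least 1 read and leaving out WPF replicate 4 each called 4.

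The 3 acute phase calls were *Saa1*, *Saa2* and *Lcn2*. *Saa1*, a serum amyloid gene, was at 17.2, 8.07 and 4.28 CPM in the KPF libraries and 1.40, 2.42 and 2.196 CPM in the WPF libraries (log2 fold change 2.28, SE 0.54, unadjusted p = 0.00310, adjusted p = 0.416 by edgeR's quasi-likelihood test). KPF replicate 1 was the highest for all 3, and without it *Saa2* (1.30) and *Lcn2* (0.61) lost the call while *Saa1* (1.61) kept it. *Lcn2* also lost it without WPF replicate 2 (1.30) or WPF replicate 3 (1.38). By DESeq2 the adjusted p was 0.00601 for *Saa1* and 0.0443 for *Saa2*. In the edgeR fit of all genes with at least 1 read it was 0.0168 and 0.0487. In every other fit it was above 0.05 for both. *Saa1* and *Saa2* are close copies, so reads could be split between them. In KPF replicate 1, *Mt1* and *Mt2* were the lowest of the 3 KPF libraries, and a link with the acute phase genes was not tested.

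**Figure D4:**
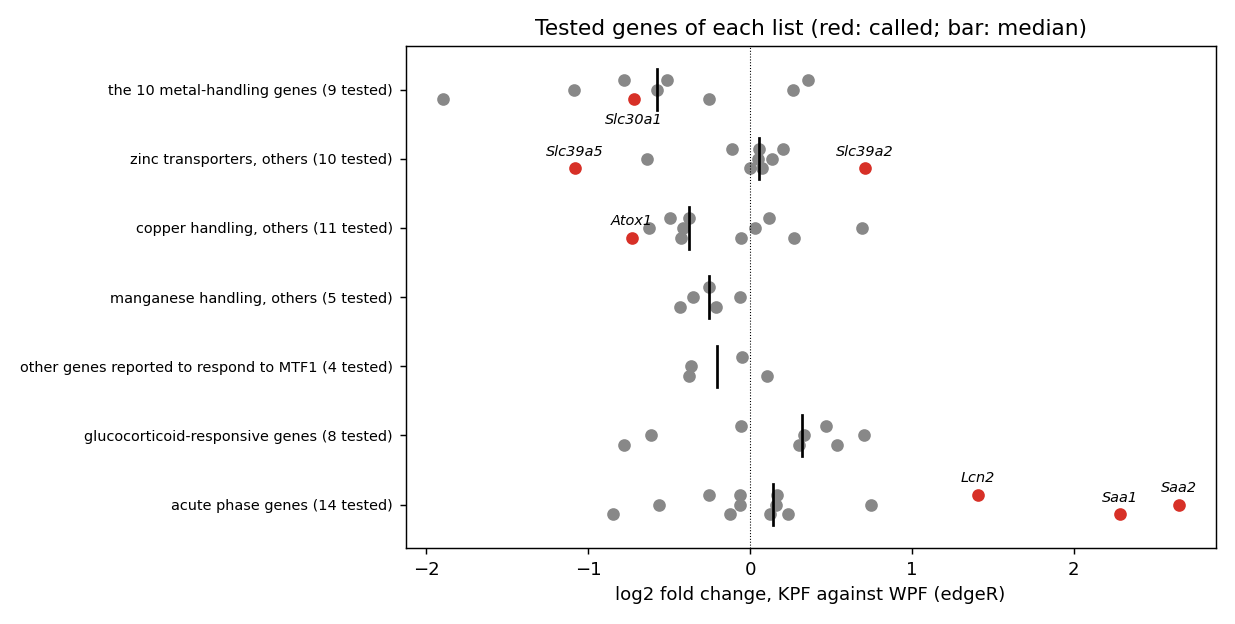
Log2 fold change of KPF against WPF for the tested genes of each list, from edgeR, with 1 point a gene, called genes in red and the median as a bar. The 7 called genes are *Slc30a1*, *Slc39a5*, *Slc39a2*, *Atox1*, *Lcn2*, *Saa1* and *Saa2*, and the medians run from -0.57 for the 9 tested metal-handling genes to 0.32 for the glucocorticoid-responsive genes.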

How the data were processed

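Liver RNA of 3 KPF and 3 WPF dams was sequenced as poly(A) libraries in paired-end mode. One table deposited by the authors holds raw counts and FPKM values for every gene. The deposited FPKM values equal the counts divided by the exonic length and the total of counted reads (100% of values within 0.006). Per the labels the submitters' processing notes name cutadapt 1.9.1, HISAT2 2.2.1, HTSeq 0.6.1, DESeq2 and GRCm39; the strand setting was not given in the sources used here. Counts (10694496 to 14496630 a library, which limits genes with few reads) were tested with edgeR 4.0.16 (R 4.3.3), using TMM scaling, the quasi-likelihood test and p-values adjusted (Benjamini-Hochberg) across the 10866 genes whose FPKM averaged 1 or more. A call needed an unadjusted p under 0.05 and at least 1.5-fold. Levels are TMM-scaled CPM. GENCODE M21 gave symbols for 52073 of 56691 gene IDs, and RefSeq (GRCm38.p6) gave promoters; their coordinates were not combined with those of the table. The scripts were tested on simulated data.

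The 10 genes and the gene lists were chosen with earlier results of these data known. Named were all 10 genes, *Mlxipl*, from each list the called genes or else the gene with the smallest p, and the 5 genes most like the mean of *Mt1* and *Mt2*. *Pklr* and the genes overlapping these on the other strand fall outside this rule. DESeq2 1.42.0, limma 3.58.1 on log2(FPKM + 1) and log2(FPKM + 0.1), other scalings and filters, leaving out each library and a replicate block were alternatives. Replicate numbers 2 and 3 occur in both groups but name different dams, and same-numbered libraries did not deviate together (correlation 0.035 for number 2 and close to 0 for number 3). The labels give separate samples, p-values measure the spread between them, and no pair of libraries agreed within sampling noise.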

Additional observations from a re-analysis of the deposited data

How the results depend on the processing

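Over all genes of each fit, calls were 371 higher and 716 lower with library totals. They were 1576 and 910 with all genes of at least 1 read, where 26984 genes were fitted. With a mean FPKM of at least 5, which keeps fewer genes, they were 255 and 205. By limma on log2(FPKM + 0.1) they were 288 and 700. Limma on log2(FPKM + 1) called 237 higher and 540 lower. Leaving out each library gave 324 to 910 higher and 246 to 709 lower. Genes at an adjusted p under 0.05 were 156 by DESeq2, 286 with all genes of at least 1 read and 0 to 5 with a library left out. Library totals moved the median log2 fold change of all genes from 0.02 to -0.12. Of the 10 metal-handling genes, 3 were called lower with all genes of at least 1 read, against 910 of all 26984 genes in that fit. With a mean FPKM of at least 5, where *Slc30a1* was not tested, 0 were called lower, against 205 over all genes. With a library left out, 0 to 2 of the 9 tested were called lower, against 246 to 709 over all genes. *Mt2* was -1.15 and past the rule with all genes of at least 1 read. Leaving out each library gave -1.39 to 0.28 for *Mt1*, -1.58 to 0.24 for *Mt2*, -0.96 to 0.11 for *Slc39a14*, -0.63 to 0.046 for *Slc39a4* and -0.037 to 0.56 for *Cp*; without WPF replicate 3 *Mt2* passed the rule. The cause was not tested. *Mtf1*, *Atp7b* and *Atp2c1* kept direction and call under all 14 alternatives run for each.

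With the replicate number as a block, *Mt1* (0.68), *Mt2* (0.77) and *Slc39a14* (0.092) turned above 0, *Slc30a10* was -2.56 and past the rule, and *Slc30a1* was -0.64 and lost its call, as did *Slc39a2*, *Slc39a5*, *Atox1*, *Lcn2* and *Saa2*, while *Zbtb16* was -1.26 and past the rule, 1 of 3 glucocorticoid-responsive genes called in this fit. Library totals and all genes of at least 1 read each called 1 of that list. The numbers share no dam and the pairing check gave a correlation of 0.035 for number 2, so this fit, which rests on the numbers 2 and 3, is not a paired analysis. Depth limits *Slc39a8*, *Mtf1*, *Slc39a4* and *Slc30a1* most, with 28 to 269 reads a library.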

Other observations

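*Slc30a10* was also compared with all tested genes, a choice made after its values were seen. The 5 genes whose log2 CPM over the 6 libraries was most like it were *Bcor* (r = 0.99), *Mrtfb* (r = 0.99), *Abca2* (r = 0.99), *Mpzl1* (r = 0.99) and *Avpr1a* (r = 0.99). *Abca2*, which encodes an ATP-binding cassette transporter, was counted at 35.5, 36.2 and 83.9 CPM in the KPF libraries and 122, 112 and 38.3 CPM in the WPF libraries. *Avpr1a*, the vasopressin receptor of hepatocytes, stood at 8.50, 6.28 and 18.7 CPM in the KPF libraries and 30.1, 29.0 and 9.55 CPM in the WPF libraries. For each of them KPF replicate 3 lay above KPF replicates 1 and 2, and WPF replicate 4 lay below WPF replicates 2 and 3, as for *Slc30a10*. This shared order follows from how the 5 genes were picked and is not a separate result.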
